A study of Arabidopsis thaliana with 7 samples.

Results

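A set of 6 genes of plant water-stress protection are described here: the dehydrins COR47 (AT1G20440) and LTI30 (AT3G50970), the aldehyde dehydrogenase ALDH7B4 (AT1G54100), and LEA4-5 (AT5G06760), AtLEA4-1 (AT1G32560) and LEA18 (AT2G35300), which belong to 1 group of late embryogenesis abundant (LEA) proteins. They were taken by name from the platform annotation, each as a probe set assigned to 1 gene, and make up 6 of the 13513 such probe sets. Transcript levels were read on 7 ATH1 arrays (1 colour) from biotin-labelled RNA of seedlings of Arabidopsis thaliana. The wild-type group held 4 arrays of Col-LUC and 1 of C24-LUC, named for natural strains, and 2 arrays came from sta1, a mutant of a pre-mRNA splicing factor. All were labelled untreated and were 2 weeks old, raised on MS plates with 3% sucrose at 22 °C under days of 16 h light and nights of 8 h. The labels name no allele or parental strain for sta1, do not spell out LUC, and do not say that the replicates were separate cultures, so the spread between arrays may be technical.

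Dehydrins and LEA proteins are hydrophilic proteins, largely unfolded in solution, that accumulate in maturing seeds and in vegetative tissue under cold, drought or salt. Many of their genes respond to abscisic acid (ABA), the hormone of water deficit, or to CBF factors, the activators of cold acclimation. ALDH7B4 oxidises reactive aldehydes that form when membranes are damaged, and its gene is known to respond to dehydration, salt and ABA.

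Some records of the arrays bear on these stress genes. The information file of Col-LUC 2 carries a comment that names wild type, further names and ABA for 5 h. Its title gives no treatment, and the comment does not say whether the hybridised seedlings received ABA, so sta1 differences of the members and of the family genes described are given with and without this array. The growth text of both sta1 samples speaks of ice1, a mutant of a cold regulator, where the other samples have sta1. It also ends with seedlings grown until they were treated, not harvested, although their titles and treatment fields give no treatment; the titles were followed. Both sta1 arrays and Col-LUC 1 shared a chip lot, and sta1 1 and Col-LUC 1 a hybridisation session. The file of Col-LUC 4 is blank in these fields. Median signals of the 7 arrays ranged from 207.8 to 215.7. All 7 leaf markers with a probe set of 1 gene were above a signal of 1000 on every array. Their summed signal lay between 59864 and 63310 on the sta1 arrays, against 82437 to 100202 in wild type. Of the 7, 3 were called lower in sta1 (limma), where 0.766% of all tested probe sets were. All 7 were lower in sta1 at an unadjusted limma p under 0.05, which 23.5% of all tested probe sets reached in either direction. In all 7 both sta1 arrays lay below every wild-type array, against 15.7% of all tested probe sets. Of 3 root markers 0 passed limma, with 0 at an unadjusted p under 0.05, against 1.31% and 23.5% of all tested probe sets. Their summed signal was 9906 to 11490 in sta1 and 10294 to 14437 in wild type. Nearly all of it came from PYK10, at 9532.9 to 13975.6, while EXPA7 and EXPA18 had at most 397.4. The part of these markers in the results below was not tested. Fewer cells of a type and less RNA per cell cannot be told apart in such samples. The lists of seed and floral markers held no probe set with 1 gene and were not checked.

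No gene of the set was called different between sta1 and wild type. Of the 6 genes, 4 were tested, namely COR47, LTI30, ALDH7B4 and LEA4-5, because their signal reached 100 on at least 2 arrays. Of the 4 tested genes 0 passed limma at an adjusted p under 0.05, where 1.31% of all 15673 tested probe sets passed, 0.542% as higher and 0.766% as lower. At an unadjusted p under 0.05 there was 1 of the 4, COR47, against 23.5% of all tested probe sets, so neither count stands apart from the background. Differences below are on the log2 scale, with signals under 50 set to 50, as sta1 minus wild type.

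COR47, a dehydrin of the cold regulon also known as RD17, had the lowest signals on both sta1 arrays. Its signal was 2489.6, 5269.9, 3246.3 and 2982.2 on Col-LUC 1 to 4, 2923.3 on C24-LUC, and 2273.3 and 1867.8 on sta1 1 and 2. The groups did not overlap, although sta1 1 lay close under Col-LUC 1, and Col-LUC 2 stood highest. Such a separation, with sta1 lower, was present in 15.7% of the tested probe sets. The mean log2 signal was 11.67 ± 0.41 (SD, n = 5) in wild type and 11.01 ± 0.20 (SD, n = 2) in sta1. The difference was -0.66 ± 0.27 (SE), with a 95% interval of -1.27 to -0.056 and a limma adjusted p of 0.183, which did not pass.

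Without Col-LUC 2 the COR47 difference was -0.49, with an interval of -0.86 to -0.12 and a limma adjusted p of 0.178. Its size depended on the arrays taken as wild type. With chip lot as a block, which sets sta1 against Col-LUC 1 alone, it was -0.27 ± 0.16, and within the shared session it was -0.13. It was -0.39 when the fit kept to arrays of 1 year. Only array weights took COR47 past the threshold, at -0.72 and a limma adjusted p of 0.0395, in a setting where 11.1% of all tested probe sets were called lower. Over all alternatives its limma adjusted p ranged from 0.0395 to 0.615.

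**Figure D1:**
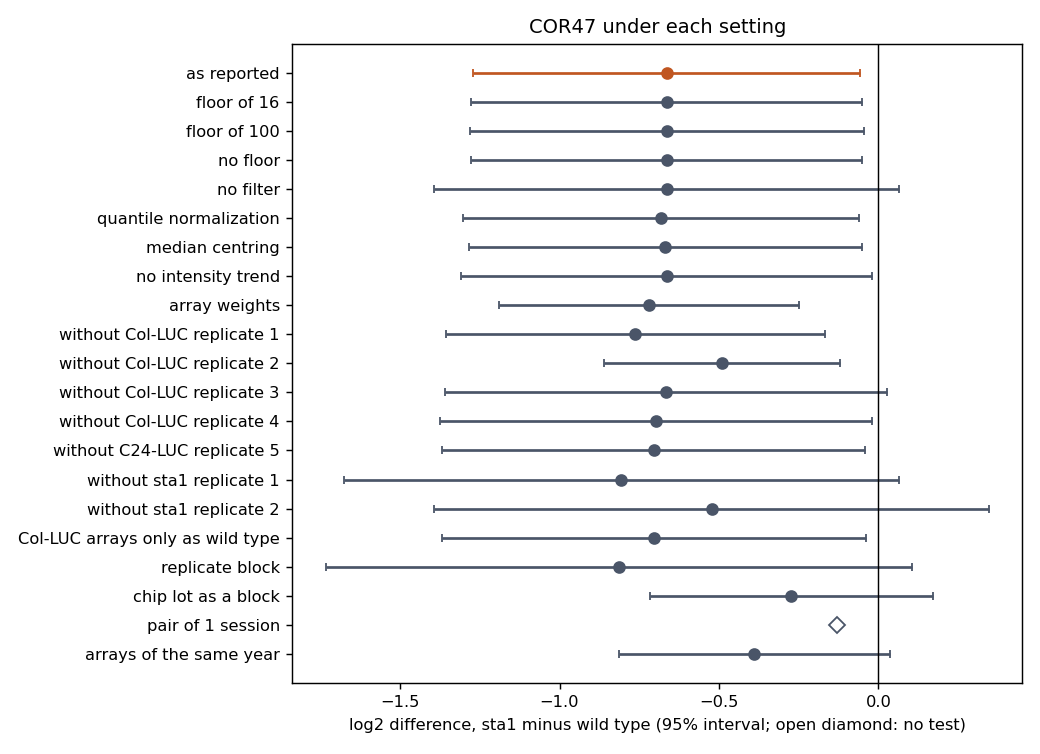
Log2 difference of COR47 between sta1 and wild type under each setting, with 95% limma intervals; the open diamond is the pair of arrays from 1 session, with no test. All values are negative, from -0.81 with the replicate block to -0.13 in the pair.

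LTI30, a cold-induced dehydrin known to associate with membranes, had nearly the same signal in both sta1 samples and in most of wild type. Its signal was 1702.9, 2822.1, 1367.3 and 1715.9 on Col-LUC 1 to 4, 1936.7 on C24-LUC, and 1648.5 and 1637.6 on sta1 1 and 2. The sta1 arrays lay inside the wild-type range, between Col-LUC 3 as the lowest and Col-LUC 1, and Col-LUC 2 again stood highest. The difference was -0.17 ± 0.25 (SE), with a 95% interval of -0.74 to 0.40 and a limma adjusted p of 0.701. Without Col-LUC 2 it was -0.022, with an interval of -0.42 to 0.37. These intervals leave room for sta1 levels between 0.598 and 1.32 times those of wild type.

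**Figure D2:**
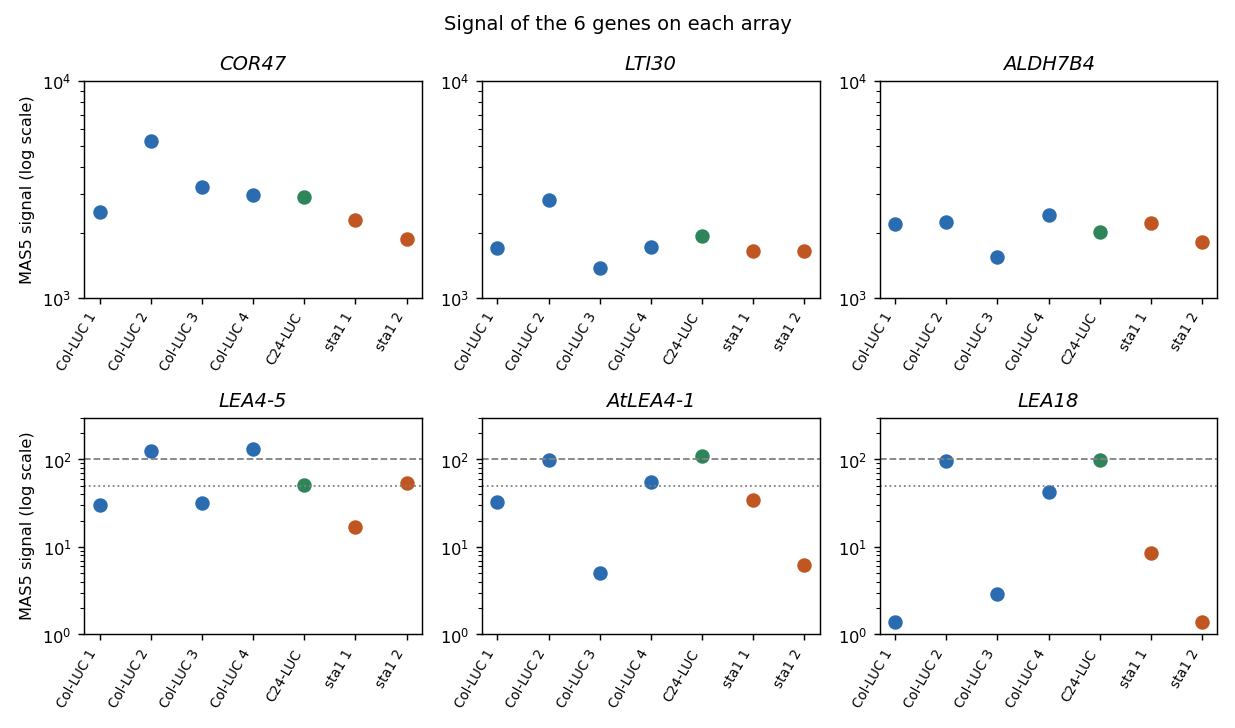
MAS5 signal (log scale) of the 6 genes on each of the 7 arrays, with Col-LUC in blue, C24-LUC in green and sta1 in orange; the rows have different axes, and in the lower row the dotted line marks 50 and the dashed line 100. COR47 and LTI30 peak on Col-LUC 2 at 5269.9 and 2822.1, ALDH7B4 stays between 1549.2 and 2415, and the 3 LEA genes in the lower row never exceed 132.9.

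ALDH7B4 varied least among the 4 tested genes. Its signal was 2191.8, 2242.5, 1549.2 and 2415 on Col-LUC 1 to 4, 2012 on C24-LUC, and 2223.2 and 1812.3 on sta1 1 and 2. The groups overlapped, and the highest array was 1.56 times the lowest. Unlike COR47 and LTI30, it did not peak on Col-LUC 2 among the Col-LUC arrays. The difference was -0.037 ± 0.19 (SE), with a 95% interval of -0.47 to 0.40 and a limma adjusted p of 0.924, and its sign turned when Col-LUC 4 or sta1 2 was left out. Without Col-LUC 2 it was -0.0058.

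The 3 LEA genes of the second group were near the limit of measurement in these seedlings. LEA4-5 encodes a small protein that accumulates under water deficit and in dry seeds. Its signal was 30.1, 123.7, 32.0 and 132.9 on Col-LUC 1 to 4, 50.6 on C24-LUC, and 17.0 and 53.6 on sta1 1 and 2. Only Col-LUC 2 and Col-LUC 4 exceeded 100, so LEA4-5 entered the test through wild-type arrays, and the groups overlapped. The difference was -0.50 ± 0.49 (SE), with a limma adjusted p of 0.568. Without Col-LUC 2 it was -0.31. With a floor of 16 the interval ran from -2.79 to 0.79, and the sign turned with chip lot as a block (0.050) and among arrays of 1 year (0.042).

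AtLEA4-1 and LEA18 are the close relatives of LEA4-5 and were not tested. AtLEA4-1 had a signal of 33.0, 97.8, 5.0 and 55.7 on Col-LUC 1 to 4, 108.9 on C24-LUC, and 34.2 and 6.3 on sta1. LEA18 had a signal of 1.4, 97.1, 2.9 and 42.2 on Col-LUC 1 to 4, 99.6 on C24-LUC, and 8.5 and 1.4 on sta1. Both were under 50 on both sta1 arrays and on Col-LUC 1 and 3, and both were highest on C24-LUC with Col-LUC 2 next. No fold is given for signals this low.

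**Figure D3:**
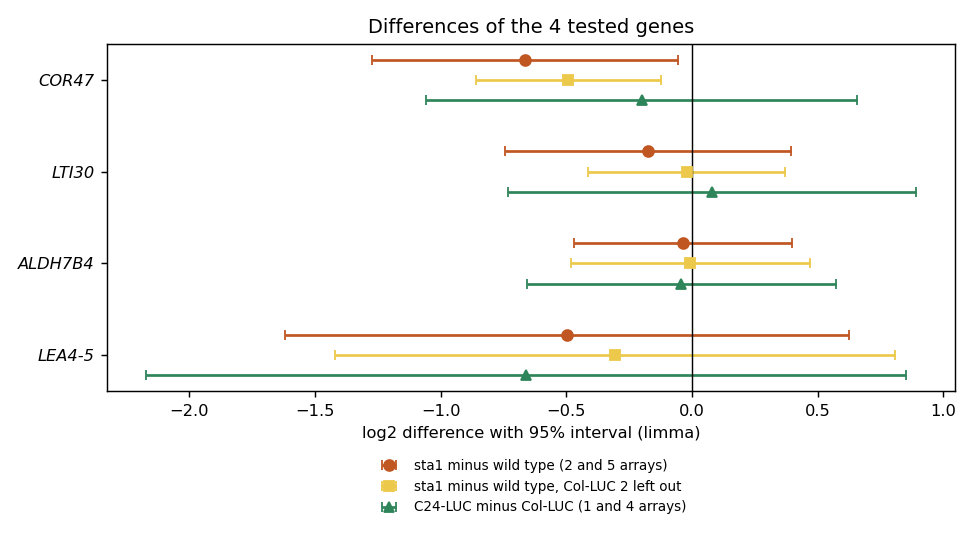
Log2 differences with 95% intervals from limma for the 4 tested genes: sta1 minus wild type (circles), the same with Col-LUC 2 left out (squares), and C24-LUC minus Col-LUC (triangles). The COR47 intervals for sta1 lie below 0, at -1.27 to -0.056 and -0.86 to -0.12, and all the others span 0.

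Between the strains, each of the 4 tested genes had a C24-LUC signal inside the Col-LUC range. Of all tested probe sets, 45.9% had C24-LUC outside that range. For LTI30 this rested on Col-LUC 2, since its C24-LUC signal of 1936.7 was above the remaining Col-LUC arrays, at most 1715.9. Without Col-LUC 2 its strain difference was 0.29. The C24-LUC signal of LEA4-5, 50.6, was near the floor of 50. The comparison asked whether the strains pooled as wild type differ in these genes, and the only C24-LUC array shared its chip lot with no other, so strain and array cannot be told apart. The log2 difference of C24-LUC from Col-LUC was -0.20 ± 0.37 (SE) in COR47, 0.080 ± 0.35 in LTI30, -0.042 ± 0.26 in ALDH7B4 and -0.66 ± 0.65 in LEA4-5. Of the 4 genes 0 passed limma, with adjusted p-values between 0.754 and 0.972 and 0 at an unadjusted p under 0.05, where 1.37% (0.204% higher, 1.16% lower) and 12.5% of all tested probe sets did. Signs turned on leaving out Col-LUC 2 in COR47 (0.017), Col-LUC 3 in LTI30 (-0.061) and Col-LUC 4 in ALDH7B4 (0.032). The 95% interval of COR47 ran from -1.06 to 0.66 and that of LTI30 from -0.73 to 0.89. AtLEA4-1 and LEA18 alone lay above all Col-LUC arrays in C24-LUC, at 108.9 and 99.6.

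Within wild type, COR47 and LTI30 were high on Col-LUC 2, the array whose comment names ABA. To keep that array from choosing the genes, those below were admitted by their signal on the other 6 arrays. Of the 5 members that reach 100 on such an array, 3 (COR47, LTI30 and AtLEA4-1) had their highest Col-LUC signal on Col-LUC 2, against 22.3% of all probe sets admitted so. LEA18, with no array at 100, was also highest there among the Col-LUC arrays. COR47 was 1.81-fold higher on Col-LUC 2 than the mean of the other Col-LUC arrays, 2906 ± 384 (SD, n = 3), and LTI30 was 1.77-fold higher than their 1595 ± 198. By log2 excess, COR47 stood at the 97.5th percentile, LTI30 at the 97.3rd and ALDH7B4 at the 69.8th of the 15482 probe sets that reach 100 on at least 2 of the other arrays. LEA4-5 does not pass that filter, and was as high on Col-LUC 4 as on Col-LUC 2. These are descriptions of a single array with no test, and the part of an ABA treatment in them was not tested.

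The wider family, like the members, was mixed on Col-LUC 2. Of 50 dehydrin and LEA loci listed, 34 had a probe set with 1 gene. Of these, 13 were under 50 on every array, and 5 stayed above 1000 throughout, COR47 and LTI30 among them. Apart from the members, 11 reached 100 on an array other than Col-LUC 2. Of these 11, 5 peaked on Col-LUC 2 among the Col-LUC arrays, against 22.3% of all probe sets admitted so. Over all 7 arrays 3 peaked there, against 14.2%. COR15A, which protects chloroplast membranes in the cold, had a signal of 443.4, 4117.5, 411.3 and 2250.4 on Col-LUC 1 to 4, a far wider spread than that of COR47. M17, a LEA protein of maturing seeds, had 175.9 on Col-LUC 2 and 173.5 on C24-LUC, and at most 51.7 on the other 5 arrays. AT4G38410, a further dehydrin, went the other way, with 68.1 on Col-LUC 2 and 103.3 to 219.3 on the remaining Col-LUC arrays. Of the 11, 9 passed the filter on the other arrays, and their median excess on Col-LUC 2 was 0.25 on the log2 scale, against -0.011 over all probe sets that passed it. It reached 1 or more in 3 of the 9, COR15A, COR15B and AT3G02480, against 1.68% of those probe sets. In AT3G02480 this rested in part on a signal of 2.3 on Col-LUC 3. Its Col-LUC 2 signal was 1.49-fold over the highest other Col-LUC array.

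**Figure D4:**
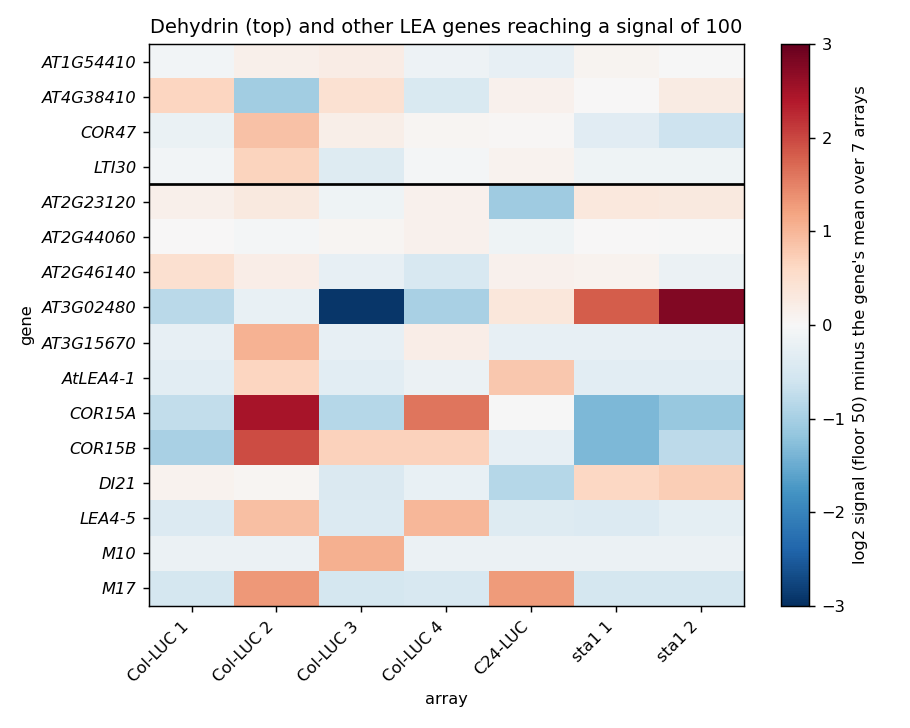
Log2 signal (floor 50) of the 16 dehydrin and LEA genes that reach 100 on at least 1 array, as the difference from each gene's mean over the 7 arrays (colour scale from -3 to 3); dehydrins stand above the black line. Col-LUC 2 is the highest Col-LUC array for 9 of the 16 genes, against 22.8% of all probe sets that reach 100. This choice of genes includes Col-LUC 2 itself, and AT3G15670 reaches 100 there alone. AT3G02480 is the row with the highest values on the sta1 arrays.

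In the dehydrin and LEA families no gene was called in sta1. Of all tested probe sets, 1.31% were called and 23.5% had an unadjusted p under 0.05. The family counts below do not stand apart from these shares. Of 10 dehydrin loci, 6 had a probe set with 1 gene and 4 were tested; 0 rose and 0 fell by limma, 1 of them had an unadjusted p under 0.05, and the median difference was -0.056, against 0.0083 over all tested probe sets. AT1G54410, the dehydrin HIRD11, and AT4G38410 had differences of 0.061 and 0.19, which became 0.10 and -0.057 without Col-LUC 2. Of 40 other LEA loci, 28 had a probe set with 1 gene and 9 were tested; again 0 rose and 0 fell by limma, 2 had an unadjusted p under 0.05, and the median was -0.054. Of the 13 tested family genes, 2 had both sta1 arrays under the lowest wild-type array, COR47 and COR15A, and 2 had both over the highest, AT3G02480 and DI21, where the background is 15.7% and 16.7%.

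The largest difference of the family was in AT3G02480, annotated as a LEA protein. Its signal was 215.9, 321.3, 2.3 and 191.7 on Col-LUC 1 to 4, 478.4 on C24-LUC, and 1329.5 and 2578.0 on sta1. Both sta1 arrays were above every wild-type array, with a difference of 3.21 ± 0.75 (SE) and a limma adjusted p of 0.0737. It passed with a floor of 100, at a limma adjusted p of 0.0445, and with array weights (0.00917). It did not pass with a floor of 16 (limma adjusted p = 0.127), with no floor (0.226) or with no filter (0.174). The difference was 3.38 without Col-LUC 2 and 2.71 without Col-LUC 3. DI21, a gene named for its response to drought, had a difference of 0.94 ± 0.25 (limma adjusted p = 0.0930) and passed without Col-LUC 1, at 1.04 and 0.0452, and with array weights (0.0115). It was at 1.03 without Col-LUC 2, at 0.57 in the chip lot block and at 0.51 in the pair of 1 session. In contrast, COR15B had a difference of -1.48 ± 0.66 and COR15A of -1.74 ± 0.87, with limma adjusted p-values of 0.219 and 0.268. Leaving out Col-LUC 2 gave -1.10 and -1.24. In the chip lot block the values were -0.080 and -0.50, in the pair of 1 session -0.36 and -0.61, and among arrays of 1 year -0.45 and -0.86. COR15B passed with array weights (limma adjusted p = 0.0371). Of all tested probe sets, 22.1% passed with array weights and 8.81% without Col-LUC 1.

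**Figure D5:**
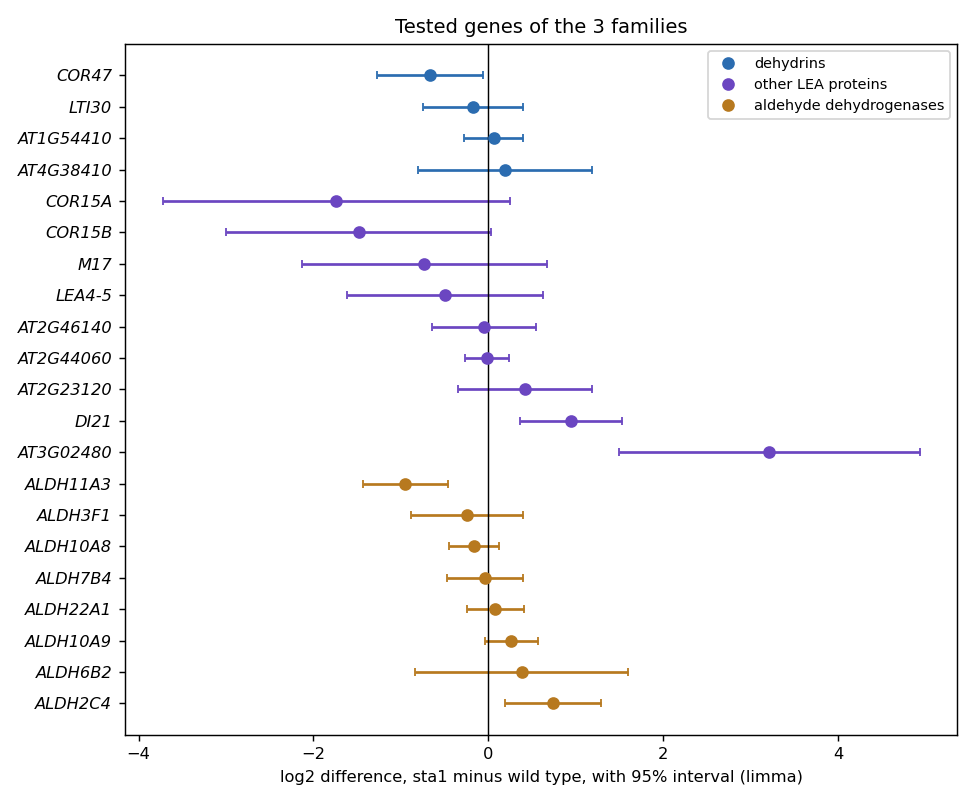
Log2 difference between sta1 and wild type with its 95% limma interval for the tested genes of the dehydrin (blue), other LEA (purple) and aldehyde dehydrogenase (brown) families. COR47 is the lowest dehydrin at -0.66, AT3G02480 the highest LEA gene at 3.21, and ALDH7B4 lies near 0 between ALDH11A3 at -0.95 and ALDH2C4 at 0.74.

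ALDH7B4 lay in the middle of its enzyme family. Of 16 aldehyde dehydrogenase loci, 8 had a probe set with 1 gene and all 8 of these were tested; 0 passed limma in sta1, 2 had an unadjusted p under 0.05, and the median difference was 0.022, where 1.31% and 23.5% of all tested probe sets did so. ALDH11A3, a cytosolic enzyme that oxidises glyceraldehyde 3-phosphate, had signals of 4056.8 to 6996.5 in wild type and of 2652.3 and 2603.7 in sta1. Its difference was -0.95 ± 0.21 (limma adjusted p = 0.0690), and it passed without Col-LUC 1 (-1.03, limma adjusted p = 0.0314) and with array weights (0.00822). It was at -0.92 without Col-LUC 2. ALDH2C4, which makes ferulic and sinapic acid, had a difference of 0.74 ± 0.24 (limma adjusted p = 0.128), and passed with array weights (0.0190). It was at 0.69 without Col-LUC 2. Array weights passed 22.1% of all tested probe sets, and the fit without Col-LUC 1 passed 8.81%. ALDH10A9, a betaine aldehyde dehydrogenase, had a difference of 0.26 ± 0.13, which became 0.25 when Col-LUC 2 was left out and 0.072 in the chip lot block.

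Between the strains, 0 of 4 tested dehydrins, 1 of 9 other LEA genes and 1 of 8 aldehyde dehydrogenases were called, both lower in C24-LUC, where 1.37% of all tested probe sets were called and 1.16% as lower. ALDH6B2, a mitochondrial enzyme of valine breakdown, had a signal of 503.6 in C24-LUC and of 1646.8 to 2321.8 in Col-LUC. It fell by 1.96 ± 0.21 on the log2 scale (limma adjusted p = 0.00746). AT2G23120, a small LEA protein, had a signal of 1324 against 2540.6 to 3417.5 and fell by 1.18 ± 0.19 (limma adjusted p = 0.0329). The call on AT2G23120 was lost without Col-LUC 2 (limma adjusted p = 0.0646), Col-LUC 4 (0.0830) or either sta1 array (0.125 and 0.126), and also without a filter (0.0522) or an intensity trend (0.0578). Both calls are on signal and rest on 1 C24-LUC array. Of all tested probe sets 0.204% were called higher there, fewer than were called lower. Whether signal follows transcript level alike in both strains was not tested.

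Few genes of cold regulation, and none of the ABA and drought list, could be set beside the members. Of 22 loci of cold regulation 3 had a probe set with 1 gene, COR15A and COR15B, which are also in the LEA list, and STZ. In sta1 0 of them passed limma and 0 had an unadjusted p under 0.05, against 1.31% and 23.5% of all tested probe sets. In C24-LUC 0 passed limma and 1 had an unadjusted p under 0.05, against 1.37% and 12.5%. The median sta1 difference of the 3 was the COR15B value of -1.48, against 0.0083 over all tested probe sets. Without Col-LUC 2 COR15B was at -1.10. STZ, a zinc finger repressor of stress genes, had signals of 564.8, 113.1, 135.9 and 100.7 on Col-LUC 1 to 4, 812.6 on C24-LUC, and 710.4 and 260.9 on sta1. Its differences were 0.88 ± 0.88 in sta1 (0.61 without Col-LUC 2), with a reversed sign in the chip lot block and among arrays of 1 year, and 2.24 ± 0.94 in C24-LUC. None of 40 loci of abscisic acid and drought responses had a probe set with 1 gene, so the ABA state of Col-LUC 2 was not measured by them. The next genes after COR47 and LTI30 in the TAIR10.1 gene table are the dehydrins ERD10 and XERO1, which were not analysed here.

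The 4 tested genes did not all peak on the same array. COR47 and LTI30 were highest on Col-LUC 2 and ALDH7B4 on Col-LUC 4, while LEA4-5 was about as high on either. Profiles were compared as log2 values centred on each gene's mean over the 7 arrays, by the root mean square difference. COR47 differed from LTI30 by 0.32, from ALDH7B4 by 0.45 and from LEA4-5 by 0.47, against its own spread of 0.44 about its mean. By closeness to COR47, LTI30 ranked 645 among 8519 other tested probe sets with 1 gene. The closest profiles to COR47 were AT5G59360 (0.088), AT3G52060 (0.16) and AT1G24440 (0.16). The closest to LTI30 were AT1G30750 (0.081), EULS3 (0.11) and AT1G11380 (0.13). ALDH7B4, with a spread of 0.20, was closest to AT2G43610 (0.076), AT3G07190 (0.092) and AT5G43190 (0.094). LEA4-5 was closest to AT3G62950 (0.039), ARD4 (0.13) and AT4G11570 (0.14). Its signal was under the floor of 50 on 3 arrays and was 50.6 on C24-LUC and 53.6 on sta1 2. The LEA4-5 profile therefore rests on Col-LUC 2 and Col-LUC 4. COR15A and COR15B were at 0.71 or more from each of the 4 tested genes. This measure counts the size of the variation as well as its order, and both varied more widely than COR47. COR15B ranked its highest arrays as COR47 did, with Col-LUC 2 first, then Col-LUC 3, Col-LUC 4 and C24-LUC. COR15A also peaked on Col-LUC 2, but Col-LUC 3 was its lowest wild-type array. The distance of COR15B from COR47 therefore does not show a different pattern. The same limit holds for the distances between the members.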

How the data were processed

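The deposited values are signal intensity per probe set, made by the authors with MAS5 per the submitters' processing notes (version not given in the sources used here), with global scaling to 500 per the labels. The array information files are text records, per the file headers, and gave chip lot, session and comments. After 64 control probe sets were left out, 22746 remained, of which 13513 had 1 gene in the platform annotation, 503 several and 8730 none; names were matched to the TAIR10.1 gene table. Signals under 50 were set to 50 and converted to log2. Those that reached 100 on 2 or more arrays entered limma 3.58.1 in R 4.3.3 (lmFit, eBayes with an intensity trend), with Benjamini-Hochberg adjustment over all tested probe sets and a threshold of 0.05. The sta1 fit had 2 groups, and the strain fit 3. Intervals are limma's 95% intervals. Precision is limited by how few arrays there are. The procedure was tested on simulated data.

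The members and gene lists were chosen with earlier results of these data known. Named genes were all 6 members, up to 4 called genes of each of 5 lists or the 3 with the smallest p, and the 3 closest profiles of each tested member; a few others, among them M17, were chosen after their values were seen. A fit without Col-LUC 2 and with the filter recomputed, the admission of genes by the other 6 arrays and the count of list genes with array weights were added after the data were seen.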

Additional observations from a re-analysis of the deposited data

Results flagged for a closer look

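Of 36 groups of 4 or 5 arrays examined in the named genes, 3 held an array that stood apart on the log2 scale without the floor. Chance gives about 1 in 20, or 1.8. The Col-LUC arrays are also part of the wild-type groups, so the groups overlap and the 2 numbers are no test. AT3G02480 had a signal of 2.3 on Col-LUC 3, under the floor of 50, while the remaining Col-LUC arrays had 191.7 to 321.3 and C24-LUC 478.4. This value was flagged both within Col-LUC and within wild type. ALDH6B2 had a signal of 503.6 on C24-LUC and of 1646.8 to 2321.8 on the remaining wild-type arrays. None of the 6 member genes held such an array. The causes were not tested.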

How the results depend on the processing

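The number of tested members called stayed at 0 in all settings for C24-LUC and in all for sta1 except array weights, where it was 1 (COR47, -0.72). In the pair of 1 session COR47 was at -0.13. Leaving out 1 array at a time gave -0.81 to -0.49 for COR47, -0.28 to -0.022 for LTI30, -0.18 to 0.11 for ALDH7B4 and -0.63 to -0.28 for LEA4-5 in sta1. For C24-LUC it gave -0.34 to 0.017, -0.061 to 0.29, -0.18 to 0.032 and -0.89 to -0.42. LEA4-5 was at 0.050 with chip lot as a block and at 0.042 over arrays of the same year; without Col-LUC 2 it did not pass a recomputed filter. AT4G38410 was at -0.50, -0.25 and, without Col-LUC 2 (both filters), -0.057 (leaving out 1 array: -0.057 to 0.37), and STZ at -0.39 and -0.65 in the lot block and the same year. ALDH6B2 in sta1 was at -0.011 against Col-LUC alone, at -0.12 with the replicate block and at -0.011 to 0.54 without 1 array. In C24-LUC, ALDH10A9 was at -0.031 and ALDH11A3 at -0.0018 with median centring, ALDH11A3 at -0.039 with array weights, and leaving out 1 array gave -0.036 to 0.074, -0.066 to 0.20 and, for AT4G38410, -0.074 to 0.49. The causes were not tested. List genes called in sta1 numbered 0 to 2 without 1 array and 6 with array weights (COR47, AT3G02480, DI21, COR15B, ALDH2C4 and ALDH11A3), and in C24-LUC 1 to 3, and 1 without a filter, against 2. Over all probe sets the sta1 calls ranged from 0 to 3468 around the reported 205 (1381 on leaving out Col-LUC 1, 53 on leaving out array 2 of that strain, 43 array 3 and 57 array 4, 88 with no filter, and 0 without either sta1 array, with the lot block or in 1 year, where 1487 to 2375 had an unadjusted p under 0.05), and the C24-LUC calls from 53 to 480 around 214. As shares of all tested probe sets, array weights called 22.1%, the setting with 6 list genes called. Leaving out Col-LUC 1, the fit with 2 list genes called, called 8.81%. The replicate numbers of the titles mark no stated pairing, and deviations of same-numbered sta1 and Col-LUC arrays correlated across probe sets at 0.19 and -0.0070. With the replicate block COR47 was at -0.81 (limma adjusted p = 0.383), LTI30 at -0.42, ALDH7B4 at -0.14 and LEA4-5 at -0.60, and 0 probe sets passed, with 2198 at an unadjusted p under 0.05. Signals near 50 carry no order.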
